A study of Mus musculus with 6 samples.

Results

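Alpha crystallins and small heat shock proteins were examined in the retinas of control and *Yap* cKO mice. The 8 genes were taken by symbol, namely *Cryab* and *Cryaa*, which encode the alpha crystallins, and *Hspb1*, *Hspb2*, *Hspb3*, *Hspb6*, *Hspb7* and *Hspb8*. They are 8 of the 55421 genes in the count table, and 6 of them were among the 16575 genes that passed the filter on low counts. The genes were selected on family and with the counts of these same 6 retinas in view, so their differences between control and *Yap* cKO are given here as a description, with no p-value. Whether a member met the criteria applied to all genes is stated in the same sense and supports nothing.

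RNA was sequenced from whole retinas of 2-month-old mice, with 3 animals of each genotype. Control animals (YR612, YR613 and YR615) were Yapfl/fl, and *Yap* cKO animals (YR711, YR713 and YR714) carried RaxCreERT2 in addition to the floxed alleles. All animals received 4-hydroxytamoxifen at P10 and P14, so floxed *Yap* alleles and the drug were common to both groups, whereas Cre was present in *Yap* cKO animals only. An effect of Cre itself and an effect of *Yap* loss therefore cannot be told apart. The *Rax* promoter drives Cre in Müller glia of the retina and in the non-pigmented epithelium of the ciliary body, and does not target the other cells of the retina. The retina was sampled as a whole after the lens had been pulled out of the eye.

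Small heat shock proteins share the alpha crystallin domain and assemble into large, changing oligomers. They bind unfolding proteins without using ATP and keep them soluble until Hsp70 and its partners refold them or hand them to degradation. Alpha crystallins are best known as structural proteins and chaperones of the lens, but alpha B crystallin is also made by glia, heart and skeletal muscle. Several other members, among them *Hspb2*, *Hspb3*, *Hspb6* and *Hspb7*, are mainly known from muscle. Transcription of stress-inducible members is driven by heat shock factors, which bind inverted repeats of the unit GAA in promoters.

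Such a repeat, GAANNTTC, was looked for in the RefSeq promoter windows of the members, which run from 250 bases before to 50 bases after each transcript start (GRCm38.p6). The table of windows held 6 of the 8 members in 7 windows, with 2 for *Hspb6* and none for *Cryab* or *Hspb2*. The motif reads the same on both strands. The stretches around its matches are shown, 5′ to 3′ on the strand of the gene, because they hold the letters searched for, and the capitals mark GAANNTTC. They lie at chr5:135887787-135887844 on the plus strand for *Hspb1*, chr7:30553166-30553203 on the plus strand for *Hspb6*, chr13:113663878-113663915 on the minus strand for *Hspb3* and chr5:116422844-116422873 on the minus strand for *Hspb8*.
Hspb1: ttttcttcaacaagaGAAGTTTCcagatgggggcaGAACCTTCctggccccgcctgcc
Hspb6: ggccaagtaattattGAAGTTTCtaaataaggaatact
Hspb3: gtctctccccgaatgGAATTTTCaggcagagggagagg
Hspb8: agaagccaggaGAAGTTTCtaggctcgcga

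GAANNTTC was found in 4 of the 7 member windows and in 7.86% of all 32851 windows. *Hspb1* held 2 matches, whose first bases lay at -117 and -97 relative to the transcript start. The match of *Hspb6* began at -120 and that of *Hspb3* at -224, while that of *Hspb8* began just after the start. The reverse arrangement, TTCNNGAA, was found in 0 of the 7 windows and in 8.52% of all. GGAATG, the core read by TEAD factors through which YAP acts, was searched on both strands and was found in the windows of *Hspb7*, *Hspb1* and *Cryaa* and in 14.7% of all windows. TATAAA on either strand was present for *Hspb6* and *Hspb3* and in 13.6% of all windows. These matches are letters in a window and say nothing of whether a factor binds there.

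Depth was similar in both groups. Between 24261799 and 28641877 fragments per control retina and between 25972334 and 35067068 per *Yap* cKO retina were assigned to genes. Levels are given as TPM, computed from deposited counts and exonic lengths, so that genes can be compared with each other. Where a pair of TPM values is given without groups, the first is the control mean and the second the *Yap* cKO mean. The criteria of the study asked for an adjusted p of 0.05 or less, here from edgeR's quasi-likelihood test with the Benjamini-Hochberg method, a change of 1.5-fold or more, and 5 TPM or more as the mean of 1 group. A gene under 5 TPM in both groups could not meet them whatever its change, which applies to 2 of the 6 members tested, *Cryaa* and *Hspb3*. These criteria were met by 132 tested genes (0.796%), 97 lower and 35 higher in *Yap* cKO. The study reported more genes at these cutoffs and did not name its edgeR test. At a share of 0.796%, a list of genes can hold none that meet the criteria. A count of 0 in a list below is therefore not read as a lack of change.

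The deleted gene was checked first. *Yap1* was at 9.48, 9.52 and 9.83 TPM in control retinas, against 3.99, 3.76 and 3.94 TPM in *Yap* cKO. Its log2 fold change was -1.36 ± 0.09 (SE). It fell in every *Yap* cKO retina as labelled, with an adjusted p of 0.000282. Defining genes of the retina were present, such as the rod transducin gene *Gnat1*, at 18808 TPM in control against 18374 TPM in *Yap* cKO, and the Müller glia gene *Glul*, at 3017 and 2711 TPM.

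Some libraries stood apart in genes that bear on the results below. Control retina YR615 had the most counts for *Cryaa* and several beta and gamma crystallins. Among *Yap* cKO retinas, the summed level of 9 marker genes of the retinal pigment epithelium ranged from 29.0% of the control mean in YR711 to 97.9% in YR714.

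*Cryab* encodes alpha B crystallin, which in glia and muscle guards intermediate filaments such as vimentin, GFAP and desmin. It was at 104, 96.6 and 113 TPM in control retinas, against 37.4, 38.7 and 42.1 TPM in *Yap* cKO. All *Yap* cKO retinas lay far below all control retinas, and the spread within each group was small. The means were 104 ± 8.22 TPM (SD, n = 3) and 39.4 ± 2.42 TPM (SD, n = 3), and the coefficients of variation were 7.87% and 6.14%. Each *Yap* cKO retina held between 35.8% and 40.3% of the control mean. The values rest on 1011, 979 and 1284 counts in control and 353, 498 and 425 counts in *Yap* cKO retinas.

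*Cryab* had a log2 fold change of -1.46 ± 0.10 (SE), or 2.76-fold lower levels in *Yap* cKO. *Cryab* was the 1 member of 6 tested that met the criteria, beside 0.796% of all tested genes and 0.585% that met them as lower and 0.211% as higher in *Yap* cKO. Nothing is read from that share, since the members were proposed in view of this difference. Among the 97 genes called lower, *Cryab* ranked 29th by size of the log2 fold change and 9th by level in control retinas. In whole retinas, fewer cells that express *Cryab* and less *Cryab* RNA per cell cannot be told apart. With each retina left out in turn its log2 fold change lay between -1.54 and -1.41, and with a correction for gene length it was -1.34.

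*Hspb2* lies head to head with *Cryab* and encodes a muscle-enriched member that forms complexes with the *Hspb3* product. It was rare in retina, with 11, 9 and 16 counts in control and 4, 5 and 3 counts in *Yap* cKO retinas. These correspond to 2.0, 1.57 and 2.5 TPM against 0.751, 0.689 and 0.526 TPM. The lowest control retina was above the highest *Yap* cKO retina, as for *Cryab*. Groups did not overlap for *Cryab*, 1 of the 6 members tested, and for the untested *Hspb2*, beside 24.3% of all tested genes and 9.04% with every *Yap* cKO retina lower. Nothing is read from these counts.

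*Hspb2* did not pass the filter on low counts, since it reached the minimum CPM in 2 retinas only, and was not tested. Summed over retinas, 36 control counts stood against 12 *Yap* cKO counts. Scaled to depth, that rate was 3.28-fold higher in control, with an exact 95% interval from 1.67 to 6.92 that covers counting error only. The *Hspb2* gene (GRCm38, chromosome 9, 50751078 to 50752354, minus strand) overlaps the *Cryab* gene (chromosome 9, 50751325 to 50756636, plus strand) and shares 252 exonic bases with it. The counts were made by strand. For every 100 *Cryab* counts there were 1.09, 0.919 and 1.25 *Hspb2* counts in control and 1.13, 1.0 and 0.706 in *Yap* cKO retinas. These ratios overlapped between the groups. How many *Hspb2* counts stem from *Cryab* fragments read on the wrong strand was not tested.

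**Figure D1:**
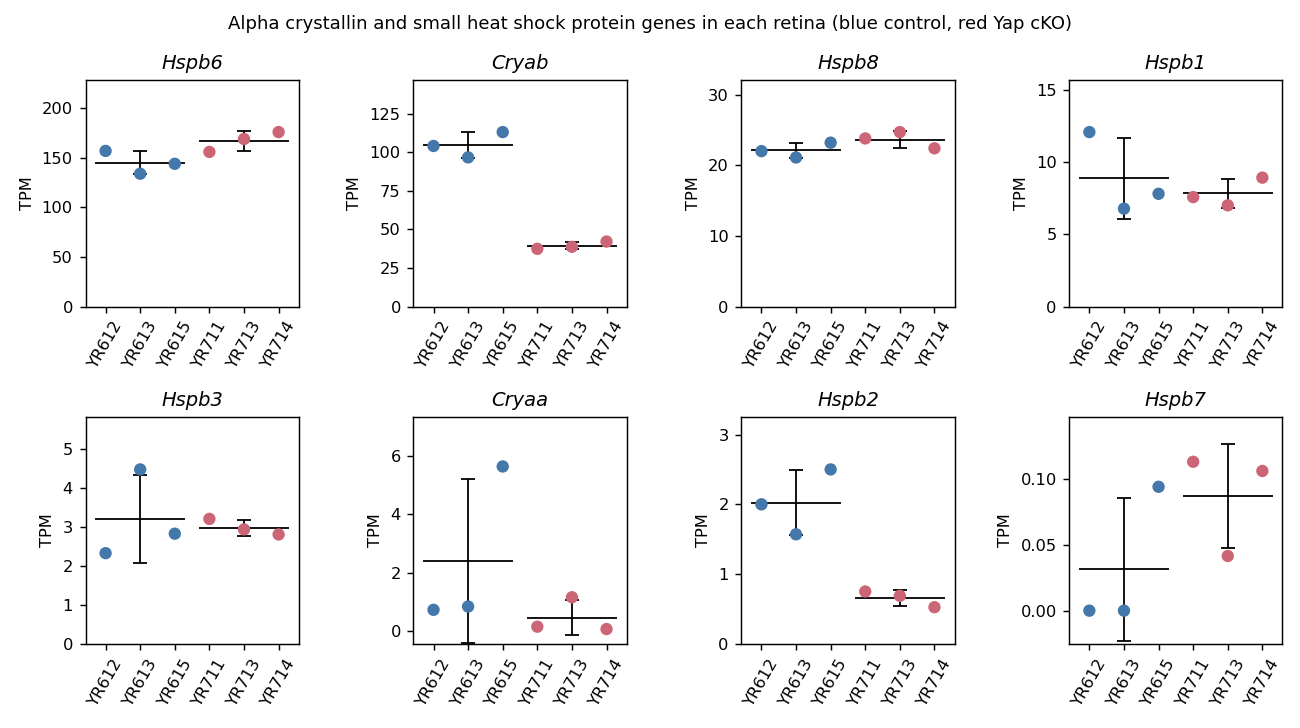
TPM of the 8 genes (y axes, each from 0 or just below) in each of 3 control retinas (blue) and 3 Yap cKO retinas (red), with lines for group means and bars for SD. The groups separate for Cryab, at 96.6 to 113 against 37.4 to 42.1 TPM, and for the rare Hspb2, while Hspb6, Hspb8, Hspb1, Hspb3, Cryaa and Hspb7 overlap.

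*Cryaa* encodes alpha A crystallin, the partner of alpha B crystallin in the lens. It was at 0.730, 0.843 and 5.64 TPM in control against 0.151, 1.16 and 0.0705 TPM in *Yap* cKO. YR615 alone gave most of the control signal, YR713 most of the *Yap* cKO signal, and the groups overlapped. Its 6 counts were 10, 12 and 90 in control and 2, 21 and 1 in *Yap* cKO. The log2 fold change was -2.30 ± 0.95 (SE), and the criteria were not met. It was -0.67 without YR615 and -4.44 without YR713, and between -2.71 and -1.85 with any other retina left out. The gene lies on chromosome 17, 31677807 to 31681733 (GRCm38, plus strand). *Cryaa* passed the filter through all control retinas and YR713.

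The beta and gamma crystallins, further structural proteins of the lens, showed the same libraries high in part. Of 14 such genes, 2 had no count, 8 had their highest control TPM in YR615 and 8 had their highest *Yap* cKO TPM in YR713. These were also the most deeply sequenced libraries of their groups. Those named here were singled out after their values were seen. *Cryba1* had 5, 5 and 52 counts in control and 1, 8 and 0 in *Yap* cKO retinas. *Crybb2* had 8, 3 and 57 counts against 2, 24 and 1, whereas *Crybb1* had 21, 10 and 18 against 12, 16 and 13. As for *Cryaa*, YR615 was highest among control and YR713 among *Yap* cKO retinas for *Cryba1* and *Crybb2*, but YR612 was the highest control retina for *Crybb1*.

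Of 21 beta, gamma and other crystallin genes, 8 were tested, 5 of which reached 5 TPM and so could meet the criteria, and 0 met them in either direction. Their median log2 fold change was -0.05. That of the 19 genes with a count was -0.37 without the filter on low counts, with 9 at an unadjusted p under 0.05. The share of all genes at that p is not given here, so nothing is read from this count or similar counts below. *Crybg3*, named for this call, met the criteria without YR613 (0.60, edgeR adjusted p = 0.0444). The most abundant were *Crym*, a thyroid hormone binding protein of neurons at 95.7 TPM in control against 111 TPM in *Yap* cKO, and the quinone oxidoreductase relative *Cryzl1*, at 54.4 and 56.1 TPM. Neither is a structural lens protein in the mouse.

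Other lens genes were at low counts. Of 12 lens markers, 7 had at most 3 counts in every retina, and among these *Lim2*, *Dnase2b* and *Foxe3*, named for their counts, were at 0 in all. The summed level of the list was 5.51, 5.25 and 4.22 TPM in control against 3.94, 2.72 and 2.82 TPM in *Yap* cKO. YR615 was thus the lowest control retina for this list while highest for *Cryaa*. The most abundant lens markers were *Bfsp2*, of the beaded filament, at 1.89 and 1.05 TPM (log2 fold change -0.92, edgeR adjusted p = 0.172), and *Lgsn*, at 0.832 and 0.994 TPM. The 3 lens markers tested had a median of -0.91 in log2 fold change, and all were under 5 TPM and so could not meet the criteria. The part of lens fragments in the *Cryaa* values was not tested.

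**Figure D2:**
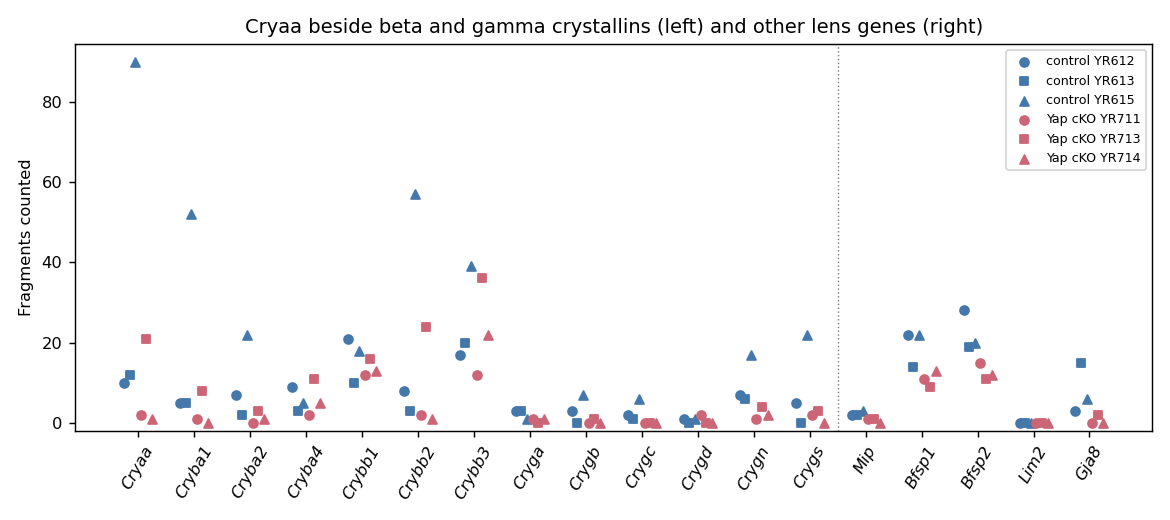
Counts of fragments (y axis) of Cryaa, beta and gamma crystallins (left of the dotted line) and other lens genes (right) in each control (blue) and Yap cKO (red) retina. Retina YR615 (blue triangles) is highest for Cryaa at 90, Cryba1 at 52 and Crybb2 at 57, and Lim2 is at 0 throughout.

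*Hspb6* encodes Hsp20, a phosphorylated member known from smooth and cardiac muscle. It was the most abundant member, at 157, 134 and 144 TPM in control against 156, 169 and 176 TPM in *Yap* cKO. The lowest *Yap* cKO retina lay within the control range, and the other two lay above it. The means were 145 ± 11.4 and 167 ± 10.4 TPM (SD, n = 3). The log2 fold change was 0.14 ± 0.10 (SE), and it stayed between 0.07 and 0.24 over all alternatives run. *Hspb6* (chromosome 7, 30552178 to 30555443, plus strand) shares 122 exonic bases with *Proser3* and 3 with *Lin37*, both on the opposite strand, and 77 on the same strand with *Gm38670*, which had 0 counts.

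*Hspb8* encodes Hsp22, which works with Bag3 to send damaged proteins to autophagy. The gene lies on chromosome 5 (116408491 to 116422864, minus strand). It was at 22.0, 21.1 and 23.2 TPM in control against 23.8, 24.7 and 22.4 TPM in *Yap* cKO. The groups overlapped and all 6 retinas lay close together. The log2 fold change was 0.04 ± 0.10 (SE), with a range from -0.02 (without YR613) to 0.15 over all alternatives run.

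*Hspb1* encodes Hsp25, the murine counterpart of human HSP27, a stress-inducible regulator of actin filaments. It is also on chromosome 5 (135887919 to 135889563, plus strand). Its levels were 12.1, 6.79 and 7.82 TPM in control against 7.59, 7.02 and 8.94 TPM in *Yap* cKO. Retina YR612 was the highest, and the others of both groups were mixed. The log2 fold change was -0.24 ± 0.25 (SE), and it was 0.06 without YR612.

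*Hspb3* (chromosome 13, 113662896 to 113663676, minus strand) encodes a small member of muscle and motor neurons. Its levels of 2.33, 4.48 and 2.83 TPM in control against 3.21, 2.94 and 2.81 TPM in *Yap* cKO overlapped, and YR613 was the highest. The log2 fold change was -0.16 ± 0.30 (SE), and it was 0.12 without YR613. *Hspb7*, a cardiac member on chromosome 4 (141420779 to 141425311, plus strand), was near absent, with 0, 0 and 2 counts in control and 2, 1 and 2 counts in *Yap* cKO retinas. It was not tested, and no fold change is given because both groups lie at or under 3 counts per retina.

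The order of mean levels in control retinas was *Hspb6*, *Cryab*, *Hspb8*, *Hspb1*, *Hspb3*, *Cryaa*, *Hspb2* and *Hspb7*. Each of the first 4 lay above the next without overlap between retinas. The control values of *Cryaa* overlapped those of *Hspb3* and *Hspb2* on either side of it, while *Hspb7* lay below all others. In *Yap* cKO retinas the first 4 kept their order, again without overlap, but the distances between them were different. The level of *Hspb6* was 1.52, 1.39 and 1.27 times that of *Cryab* in control retinas and 4.17, 4.38 and 4.19 times in *Yap* cKO retinas. *Cryab* stood 4.71, 4.58 and 4.86 times above *Hspb8* in control and 1.57, 1.57 and 1.88 times above it in *Yap* cKO.

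Summed over the 8 members, the level in control was 288.1 ± 19.5 TPM (SD, n = 3) and that in *Yap* cKO was 242.1 ± 12.4 TPM (SD, n = 3). The *Yap* cKO sums of 228.6, 244.7 and 252.9 TPM were all below the control sums of 299.8, 265.6 and 298.9 TPM. These sums include *Cryab*, the gene in view when the set was proposed, at 104 and 39.4 TPM. *Hspb6* was at 145 and 167 TPM and *Hspb8* at 22.1 and 23.6 TPM, so the lower sum is no sign of a lower family. The shares below shift with *Cryab* in the same way. *Cryab* made up 36.2% of the sum in control and 16.3% in *Yap* cKO retinas, while *Hspb6* made up 50.4% and 69.0% and *Hspb8* 7.68% and 9.78%. The median log2 fold change of the 6 members tested was -0.20, with 4 below 0 and 2 above. That of all tested genes was 0.00, with 8246 below 0 and 8329 above.

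Genes around *Cryab* were compared to see whether neighbours differed with it. Besides *Hspb2*, 7 genes had a base within 100 kb of *Cryab*. All 7 were tested and 0 met the criteria by edgeR's quasi-likelihood test or likelihood ratio test or by DESeq2. At an unadjusted p under 0.05 there were 2 by the quasi-likelihood test, *Alg9* and *2310030G06Rik*. *Dixdc1*, a Wnt pathway gene whose 5′ end lies 11.8 kb before that of *Cryab*, was at 40.9 TPM in control against 48.6 TPM in *Yap* cKO (log2 fold change 0.19 ± 0.10, SE). *Alg9*, a mannosyltransferase gene of the endoplasmic reticulum, was at 19.4 and 23.2 TPM (0.20 ± 0.08, adjusted p = 0.200).

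*Dlat*, a subunit of pyruvate dehydrogenase, had a log2 fold change of 0.07, and *Ppp2r1b*, a scaffold subunit of protein phosphatase 2A, one of 0.01. *1110032A03Rik* and *Fdxacb1*, on the far side of *Cryab*, had log2 fold changes of -0.13 and -0.05. *2310030G06Rik*, whose 5′ end is the nearest at 4.79 kb before that of *Cryab*, was singled out after its value was seen. It was at 1.47 TPM in control against 0.899 TPM in *Yap* cKO, lower in each *Yap* cKO retina, with a log2 fold change of -0.77 ± 0.27 (SE) and an edgeR adjusted p of 0.16.

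**Figure D3:**
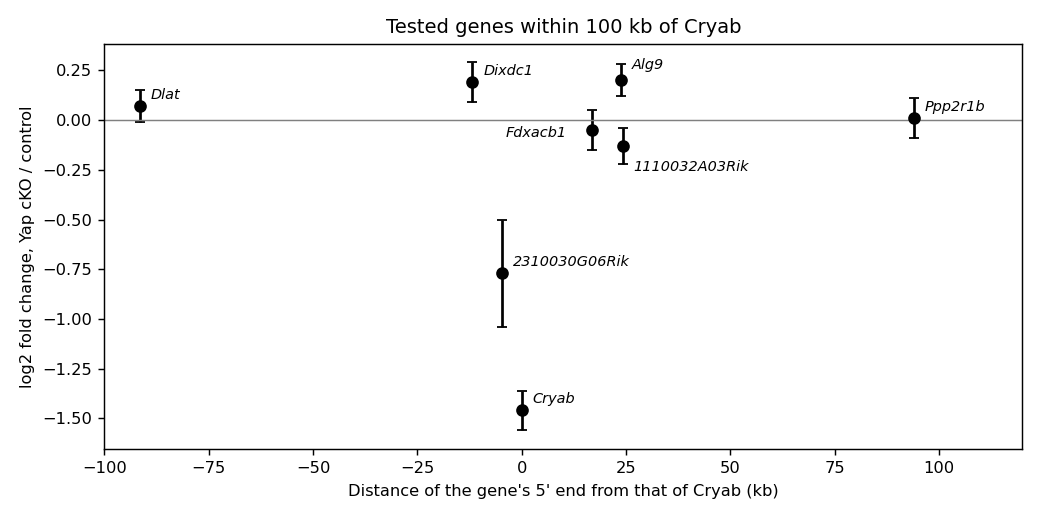
Log2 fold change between Yap cKO and control (y axis, bars SE) of Cryab and the 7 other tested genes within 100 kb, by the distance of their 5′ end from that of Cryab in kb (x axis, direction of Cryab transcription). Cryab is at -1.46, 2310030G06Rik at -0.77, and the other 6 lie between -0.13 and 0.20.

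The genes whose levels followed *Cryab* most closely across the 6 retinas were *Idh2*, *Cnn3*, *Yap1*, *Fbxo9* and *Tnfrsf21*, with Pearson's r from 0.994 to 0.996 among 12215 genes. The points are the same 6 libraries for every gene, and the *Cryab* values form 2 clusters that are the 2 genotypes, so r mostly reflects the difference between them. *Idh2*, mitochondrial isocitrate dehydrogenase, was at 30.4 TPM in control against 19.5 TPM in *Yap* cKO (log2 fold change -0.70) and met the criteria. *Cnn3*, an actin-binding calponin, was at 165 and 115 TPM (-0.58), short of the fold change required. *Fbxo9*, a ubiquitin ligase subunit, and *Tnfrsf21*, a death receptor, each had a log2 fold change of -0.23. Other members followed *Cryab* less closely, with r of 0.666 for *Cryaa*, 0.389 for *Hspb1*, 0.111 for *Hspb3*, -0.22 for *Hspb8* and -0.454 for *Hspb6*.

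*Cryab* was set beside markers of the cells that a dissected retina can hold. The 12 Müller glia markers summed to 95.5%, 104% and 101% of the control mean in control and 99.8%, 89.2% and 90.4% in *Yap* cKO retinas. *Cryab* was at 35.8%, 37.1% and 40.3% in the same *Yap* cKO retinas. All 12 markers were tested and 0 met the criteria, with a median log2 fold change of -0.13, 8 below 0 and 4 above. The most abundant, *Glul*, glutamine synthetase, had a log2 fold change of -0.21, and *Dkk3*, a secreted glycoprotein, one of 0.00. Most of the summed level came from these genes. *Rlbp1*, *Lhx2* and *Kcnj10* were added after their values were seen. Their groups did not overlap, beside 24.3% of all tested genes. *Rlbp1*, at 936 and 760 TPM, was lower in every *Yap* cKO retina (log2 fold change -0.36, edgeR adjusted p = 0.054). So was *Lhx2* (-0.29), whereas *Kcnj10* was higher in every *Yap* cKO retina (0.28). The part of Müller glia in the *Cryab* values was not tested.

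Astrocytes, also glia that make alpha B crystallin, were followed by 7 markers. Their sum was 109%, 89.9% and 101% of the control mean in control and 92.1%, 101% and 102% in *Yap* cKO retinas. *Aldh1l1*, a folate enzyme gene listed here with astrocytes, met the criteria. It fell from 16.2 to 9.74 TPM (log2 fold change -0.79 ± 0.09, SE, adjusted p = 0.00437). The most abundant markers were *S100b*, at 39.9 and 45.3 TPM, and *Gfap*, at 43.8 and 36.3 TPM (log2 fold change -0.33 ± 0.19, SE), and the list's median was -0.33. *Gfap* is also counted in the list of intermediate filament genes. How far these 7 markers separate astrocytes from Müller glia was not tested, nor was the part of astrocytes in the *Cryab* values.

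Epithelia next to the retina were followed as well. The 8 markers of the ciliary epithelium and retinal margin summed to 108%, 93.2% and 98.9% of the control mean in control and 38.1%, 57.2% and 43.0% in *Yap* cKO retinas. In TPM these sums were 116, 100 and 106 against 40.8, 61.4 and 46.1. *Optc*, which encodes the vitreous protein opticin and was the most abundant, met the criteria. It fell from 48.0 to 4.56 TPM (log2 fold change -3.41 ± 0.36, SE, adjusted p = 0.00243). *Wfdc1*, next in level, was at 25.4 and 19.5 TPM, and its groups overlapped. The other markers, *Otx1*, *Zic1*, *Zic2*, *Msx1*, *Bmp4* and *Bmp7*, were added after their values were seen. Each was lower in every *Yap* cKO retina, beside 9.04% of all tested genes. *Otx1* was at 0.92 and 0.258 TPM (log2 fold change -1.80, edgeR adjusted p = 0.0671). The median log2 fold change of the 7 markers tested was -0.56, with 7 below 0 and 0 above. The low sum rested mostly on *Optc*. Without it the sum was at 64%, 89.3% and 73.7% of the control mean in *Yap* cKO against 111%, 91.6% and 97.7% in control retinas. *Bmp4*, a growth factor gene named for these calls, met the criteria by DESeq2's Wald test (-1.18, adjusted p = 0.0291) and edgeR's likelihood ratio test (adjusted p = 0.0427). The part of these cells in the *Cryab* values was not tested.

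The 9 markers of the retinal pigment epithelium summed to 96.9%, 102% and 101% of the control mean in control retinas. They summed to 29.0% in YR711, 54.9% in YR713 and 97.9% in YR714, so that the last of these overlapped with control. *Pmel*, a melanosome protein, met the criteria. It fell from 24 to 6.60 TPM (log2 fold change -1.89 ± 0.35, SE, adjusted p = 0.0347). The criteria were not met without YR612 (-1.81, adjusted p = 0.16), YR615 (-1.84, adjusted p = 0.157) or YR711 (-1.67, adjusted p = 0.0717). The most abundant markers were *Ttr*, transthyretin, at 467 and 296 TPM, and *Rpe65*, the retinoid isomerase, at 75.1 and 37.8 TPM, and the list's median log2 fold change was -0.75. With all retinas *Ttr* had a log2 fold change of -0.70 and *Rpe65* one of -1.03, and the criteria were not met. They were met without YR714, at -1.23 and -1.79, and without the filter on low counts, at -0.72 and -1.05, and without YR711 the values were -0.38 and -0.65. In YR711, YR713 and YR714, *Pmel* was at 4.3, 11.5 and 3.96 TPM and *Ttr* at 148, 271 and 469 TPM. *Optc*, of the ciliary and margin list, was at 2.86, 8.39 and 2.44 TPM, in the same order as *Pmel*. The cells that the *Pmel* fragments came from were not tested. In YR714 the sum of the pigment epithelium list was at 97.9%, with *Ttr* at 469 TPM, while *Pmel* was at 3.96 TPM. *Cryab* was at 40.3% of the control mean in that retina. Without YR714 the log2 fold change of *Cryab* was -1.53, and without YR711 it was -1.43. The part of pigment epithelium cells in the *Cryab* values was not tested.

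**Figure D4:**
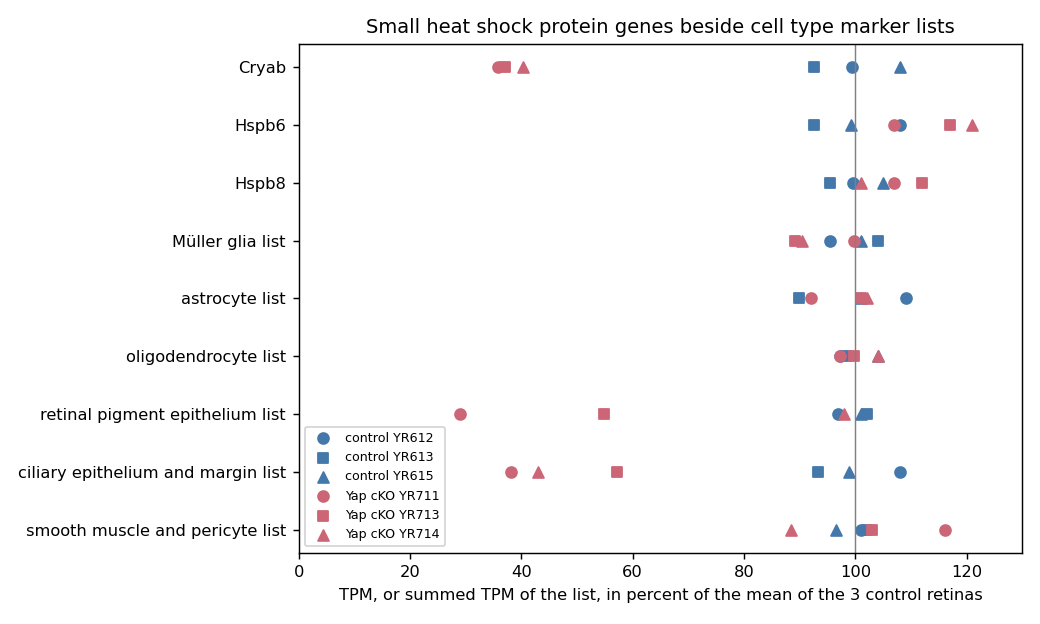
TPM of Cryab, Hspb6 and Hspb8 and summed TPM of marker lists in each control (blue) and Yap cKO (red) retina, in percent of the control mean (x axis). Cryab lies at 35.8% to 40.3% in Yap cKO retinas, the Müller glia list at 89.2% to 99.8%, the ciliary and margin list at 38.1% to 57.2%, and the pigment epithelium list at 29.0% to 97.9%.

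Vessel and muscle markers were followed because *Hspb2*, *Hspb6* and *Hspb7* are known from muscle. Of 14 smooth muscle and pericyte markers, 12 were tested, 5 of them at 5 TPM or more, and 0 met the criteria (median log2 fold change -0.12). The most abundant were *Rgs5*, of pericytes, at 70.5 and 73.6 TPM, and *Mylk*, myosin light chain kinase, at 35.5 and 40.4 TPM. Of 12 striated muscle markers, 4 were tested, 1 of them at 5 TPM or more, and 0 met the criteria (median 0.02). *Mylpf*, a fast muscle myosin light chain, was at 10 and 6.88 TPM and *Acta1*, skeletal actin, at 4.68 and 4.20 TPM. *Mylpf* was lower in every *Yap* cKO retina (log2 fold change -0.60) and met the criteria without YR714 (-0.80, edgeR adjusted p = 0.0431). The smooth muscle sum was 116%, 103% and 88.5% of the control mean in *Yap* cKO retinas, whereas *Hspb6* was at 107%, 117% and 121%.

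Intermediate filaments are clients of alpha B crystallin in glia. All 13 of their genes were tested and 0 met the criteria, with a median log2 fold change of -0.11. *Nefl*, the light neurofilament subunit, was at 884 and 935 TPM and *Ina*, alpha internexin, at 169 and 184 TPM. *Vim*, the vimentin gene of Müller glia, was added after values were seen and was at 139, 118 and 129 TPM in control against 99.6, 109 and 135 TPM in *Yap* cKO. These ranges overlapped.

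The chaperone network that takes over clients from small heat shock proteins was then examined with 7 lists of 96 genes. Of these, 94 were tested. By edgeR's quasi-likelihood test, edgeR's likelihood ratio test and DESeq2, 0 met the criteria. The share among all tested genes was 0.796% by the first of these, and nothing is read from the 0. In the quasi-likelihood test 15 had an unadjusted p under 0.05, given without the share of all tested genes, and nothing is read from it. The 3 heat shock factors tested, of 5, had a median log2 fold change of 0.05. *Hsf4*, the factor best known from lens, was at 16.0 and 15.5 TPM and *Hsf2* at 13.1 and 14.1 TPM.

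The 23 cytosolic Hsp70, Hsp110 and J protein genes had log2 fold changes with a median of 0.05. *Hspa8*, the constitutive Hsp70, was at 539, 522 and 549 TPM in control against 587, 695 and 688 TPM in *Yap* cKO. Each *Yap* cKO retina was above each control retina (log2 fold change 0.23 ± 0.09, SE, edgeR adjusted p = 0.191). *Dnaja2*, a J protein that loads clients onto Hsp70, was at 310 and 322 TPM. The inducible Hsp70 genes *Hspa1a* and *Hspa1b* and the Hsp110 gene *Hsph1* were added after their values were seen. *Hspa1a* was at 29.8 and 21.5 TPM (-0.53 ± 0.11, SE, adjusted p = 0.0530) and *Hspa1b* at 23.5 and 20.2 TPM. The pair are near-identical copies, so the split of fragments between them is uncertain. *Hsph1* was at 41.6 and 60.6 TPM (0.49 ± 0.12, SE, adjusted p = 0.0887).

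For the 14 genes of Hsp90 and its co-chaperones the median was -0.01. *Hsp90aa1* was at 1205 and 1172 TPM and *Hsp90ab1* at 1147 and 1222 TPM. The 13 genes of Bag proteins and selective autophagy, the route that *Hspb8* serves, had a median of 0.03. *Sqstm1*, the autophagy receptor p62, was at 336 and 357 TPM and *Bag1*, a nucleotide exchange factor of Hsp70, at 258 and 232 TPM. *Bag3*, the partner of Hspb8, was added after its values were seen and was at 11.5, 10.3 and 12.1 TPM in control against 11.5, 17.3 and 20 TPM in *Yap* cKO. YR711 lay within the control range and the other *Yap* cKO retinas above it (0.47 ± 0.20, SE, adjusted p = 0.212).

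The 14 chaperonin and prefoldin genes had log2 fold changes around a median of -0.06, with *Pfdn5*, a prefoldin subunit, at 449 and 383 TPM and *Cct5*, a chaperonin subunit, at 402 and 384 TPM. The 17 endoplasmic reticulum chaperones had a median of 0.13. *Calr*, calreticulin, was at 534 and 676 TPM and *Hsp90b1*, the Hsp90 of this compartment, at 549 and 574 TPM. The 10 mitochondrial chaperones had a median of -0.05, with *Hspa9* at 211 and 217 TPM and *Hspd1* at 179 and 178 TPM. Among 3 more distant small heat shock protein genes, *Hspb11*, an intraflagellar transport gene, was tested. It was at 21.7 and 18.1 TPM (log2 fold change -0.32 ± 0.13, SE, edgeR adjusted p = 0.193), and *Odf1* was close to 0.

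**Figure D5:**
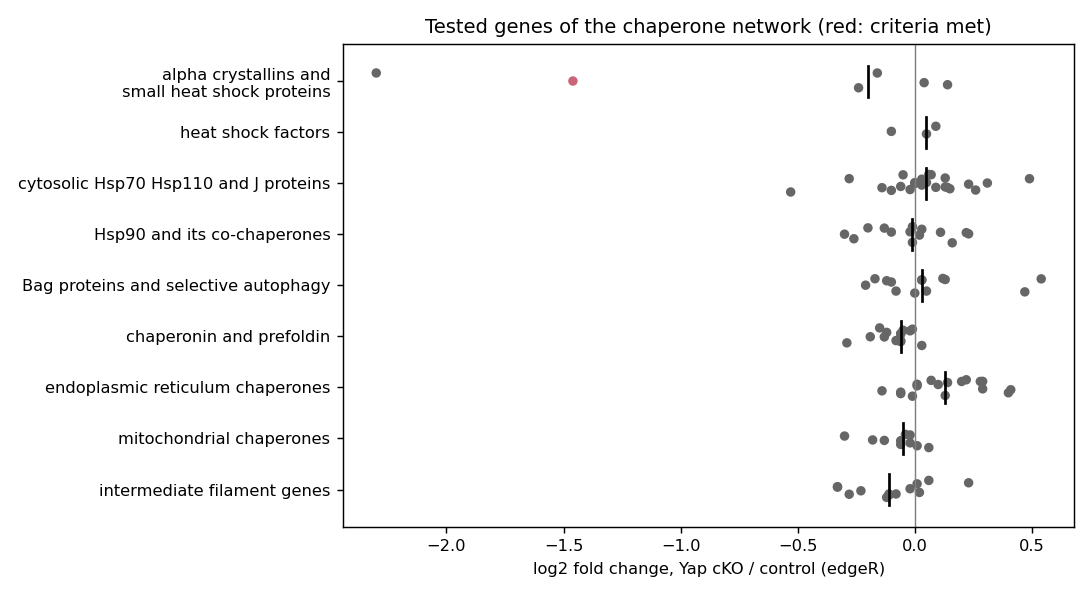
Log2 fold change between Yap cKO and control (x axis) of each tested gene of the members, the 7 chaperone lists and the intermediate filament genes, with a bar at each list's median and red for the gene that met the criteria. Cryab stands at -1.46 and Cryaa, which did not meet the criteria, at -2.30, while the chaperone lists run from -0.53 to 0.54.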

How the data were processed

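RNA-seq of 6 retinas was analysed. Per the labels and the file header, the authors used STAR 2.7.3a and GRCm38 to align the stranded read pairs and counted fragments on exons with featureCounts 1.6.2 (strand setting 2, annotation release 98 in the header, an earlier one in the methods). The deposited values are counts without normalization, beside each gene's exonic length. Symbols were matched for 55154 of 55421 genes. Animals were grouped by genotype in the labels.

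Genes were filtered with filterByExpr, normalized by TMM (common dispersion 0.0126) and tested by quasi-likelihood in edgeR. Adjustment was by Benjamini-Hochberg over 16575 genes. R 4.3.3, edgeR 4.0.16, limma 3.58.1 and DESeq2 1.42.0 were used. Each SE was obtained from F and the log2 fold change. Like genes were found on log2 CPM (prior count 2). Alternatives changed the size factors, the filter, the test (likelihood ratio in edgeR, Wald in DESeq2), a length correction (loess, span 0.3), the minimums of TPM and fold change, and the retinas included. The edgeR fit was tested on simulated data.

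The members and 20 further lists of 229 genes were chosen with earlier results of these data known. Named were all members, *Yap1*, in each list up to 3 genes meeting the criteria and the 2 most abundant, genes within 100 kb of *Cryab* with at least 5 TPM, and the 5 genes most like *Cryab*; genes outside this rule are marked as named for, or after seeing, their values. A planned comparison of protein sequences was not analysed here. Promoter windows are from RefSeq, GRCm38.p6. The list of rod markers and 1 of its genes are not reported here.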

Additional observations from a re-analysis of the deposited data

How the results depend on the processing

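The members were selected with the difference in *Cryab* in view, so its values over the alternatives describe the same 6 retinas and are no independent support. *Cryab* was the 1 member that met the criteria under each, and its log2 fold change lay between -1.54 and -1.34 over all of them and between -1.54 and -1.41 with each retina left out. By TPM it was -1.41. The 132 genes that met the criteria became 369 without the filter on low counts, 263 with DESeq2's Wald test and 291 with edgeR's likelihood ratio test, and 38 to 516 with a retina left out (40 without YR612, 516 without YR613, 38 without YR615, 68 without YR713 and 448 without YR714). In the 20 lists besides the members, 3 of 188 tested genes met them, beside 0.796% of all tested genes. There were 4 by DESeq2 or the likelihood ratio test (with *Bmp4*), 9 without the filter, and 2 to 13 with a retina left out (7 without YR613, 13 without YR714). *Pmel* was lost without YR612, YR615 or YR711. Among chaperones, *Hspa1a* (lower) and *Wdfy3* (higher, named for these calls) met them without YR613 or without YR714, and *Hsph1* (higher) without YR711. Near *Cryab* it was 0 in all. With a retina left out, the log2 fold change ran from -0.42 to 0.06 for *Hspb1*, from -0.32 to 0.12 for *Hspb3* and from -0.02 to 0.07 for *Hspb8*, and the sign turned without YR612 for *Hspb1* and without YR613 for the others. The cause of these shifts was not tested. DESeq2 gave no adjusted p for 1609 tested genes, 1 of them a member, *Hspb3*. *Hspb2* and *Hspb7* rest on few counts, and the *Cryaa* counts vary widely between retinas. No paired analysis was possible because the labels give animal codes and no replicate numbers, and nothing ties an animal of 1 group to an animal of the other. With 3 against 3 retinas, 0.1 is the smallest two-sided p of an exact permutation test.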

Other observations

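Markers of ganglion cells and myelin, described nowhere above, gave no gene that met the criteria by edgeR's quasi-likelihood test with all retinas and the filter on low counts. The oligodendrocyte gene *Ermn*, named for these calls, met them without YR714 (log2 fold change -1.07, adjusted p = 0.0102) and without the filter (-0.66, adjusted p = 0.00261). The 7 retinal ganglion cell markers had log2 fold changes around a median of -0.01, with the synuclein gene *Sncg* at 670 and 625 TPM and the surface glycoprotein gene *Thy1* at 353 and 374 TPM. Of 10 oligodendrocyte markers, 6 were tested, 4 of them at 5 TPM or more, with a median of 0.15. The myelin genes *Cnp*, at 29.0 and 26.1 TPM, and *Mbp*, at 14.8 and 18.4 TPM, were the most abundant.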
